A study of Mus musculus with 30 samples.

Results

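The response difference between clones 14559R and 14559TN is the change that RAFi/MEKi brought in 14559R minus the change it brought in 14559TN. It is the interaction of clone and treatment, and its members are the 12 libraries of these clones out of 30 libraries in the series. They make up 4 of the 10 groups, with 3 tumours in each: 14559TN untreated, 14559TN treated, 14559R untreated and 14559R treated. The series measured messenger RNA in subcutaneous tumours of YUMM1.7, a mouse melanoma line that carries an activating Braf mutation. The labels give the strain C57BL/6 for each library. Treated tumours received RAFi/MEKi, inhibitors of the RAF and MEK kinases, and the labels give neither the compounds, nor a dose, nor a time. Each clone was isolated with CaTCH, a method that retrieves a barcoded clone from a mixed population, so that 14559TN and 14559R stand for 1 clone each. The letters TN and R are not spelled out in the labels and are used here as names. The cells were taken from dissociated tumours as live cells with a strong GFP signal, after a CD45 stain for immune cells. The comparison asks where the drug response of 14559R was unlike that of 14559TN.

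In cells with mutant Braf, the signal runs from BRAF through the kinases MEK1 and MEK2 to the ERK kinases, which switch on genes for ETS and AP-1 transcription factors, for cyclin D1 and for feedback phosphatases and Sprouty proteins. Blocking RAF and MEK lowers this output and halts division in cells that depend on it. Interferons act through transcription factors, STAT2 and IRF9 among them, which bind interferon-stimulated response elements in the promoters of antiviral and antigen presentation genes.

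A library held 3287743 to 4620473 counts (median 4245628) and 15810 to 16433 genes with at least 1 count. Of the pigment cell markers, Dct, Tyrp1, Mlana and Tyr had 0 counts in all 12 libraries, whereas Mitf, the master regulator of melanocytes, was read in each of them (52.5, 51 and 51.2 CPM in untreated and 61, 67.9 and 64.3 CPM in treated 14559TN, 36.9, 29.6 and 30.3 and 41.3, 81.3 and 35.1 CPM in 14559R). The pigment genes therefore did not mark the sorted cells as melanoma. Sox10, a further melanoma marker in the lists, had means of 0.10 and 0.07 CPM in untreated and treated 14559TN. In 14559R its means were 19.5 and 9.1 CPM. Macrophage markers summed to 33.8, 64.5 and 114 CPM in untreated 14559TN and 155, 81.3 and 86.5 in treated 14559TN. They summed to 78.3, 61.3 and 81.4 CPM in untreated 14559R and 80.7, 80.3 and 114 in treated 14559R. Of 14 tested macrophage markers 0 were called for the response difference (median -0.87), against 12% of all tested genes. A single marker, Laptm5, gave 26.7 and 48.3 CPM of the mean macrophage sums of 73.6 and 91.7 CPM in untreated and treated 14559R. In 14559TN it gave 2.79 and 5.26 CPM of mean sums of 70.7 and 107.5 CPM. The sums of the 2 clones thus rest on different markers. Markers of lymphocytes summed to at most 4.54 CPM in a library, with Cd3g, Cd8b1, Cd79a, Cd79b, Ms4a1 and Ncr1 at 0 counts. Fibroblast markers summed to means of 9298 and 12960 CPM in untreated and treated 14559TN, and 11900 and 16630 CPM in 14559R. The means for endothelium were 313.5 and 169.6 CPM in 14559TN and 362.2 and 321 CPM in 14559R. Those for erythroid cells were 95.35 and 38.05 CPM and 156.6 and 140.3 CPM. The source of these reads was not tested. The first principal component of the 12 libraries (72.4% of the variance of 1000 genes) placed treated 14559TN at 61.7 to 63.7 and untreated 14559TN at 12.4 to 14.9. Untreated 14559R lay at -48.7 to -33.9. Treated 14559R replicates 1 and 2 lay above these, at -24.9 and -31.3, but replicate 3 lay among the untreated tumours at -45.9. Without this library the response difference 14559R minus 14559TN was called for 1126 genes in place of 1596, and list counts that moved without it are given beside the lists. Since the tissue was measured in bulk, fewer cells of a type and less RNA per cell cannot be told apart. The p-values measure the spread between tumours grown from 1 clone, not between clones.

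The response difference was tested on 13286 genes with edgeR's quasi-likelihood test, with p-values adjusted by the Benjamini-Hochberg method and a threshold of 0.05. It was called for 1596 genes (12% of those tested), 1054 above 0 (7.93%) and 542 below 0 (4.08%), where a value above 0 means that the log2 response was higher in 14559R than in 14559TN. The responses behind it were of unlike size. In 14559TN 3771 genes (28.4%) changed, 1647 upward (12.4%) and 2124 downward (16%), whereas in 14559R 26 genes (0.196%) changed, 19 upward (0.143%) and 7 downward (0.0527%). In 14559R 1412 genes had an unadjusted p under 0.05 by edgeR, and DESeq2 called 113. Pairs of tumours of 1 group had a chi-square per degree of freedom of 3.26 to 8.72 in 14559TN and 6.01 to 15.3 in 14559R. Shares of all counts that describe the makeup of the RNA moved with treatment in 14559TN, and the mitochondrial share moved in 14559R as well. Malat1, a nuclear non-coding RNA, had a share of 1.21 to 1.33% in the untreated tumours of 14559TN, 1.76 to 2.4% in its treated tumours, and 0.824 to 1.1% and 0.848 to 1.16% in 14559R. Ribosomal protein genes took 2.35 to 2.69% and 1.63 to 1.72% in 14559TN, and 2.68 to 2.87% and 2.46 to 2.97% in 14559R. Mitochondrially encoded genes took 0.147 to 0.191% and 0.111 to 0.139% in 14559TN, and 0.0627 to 0.0737% and 0.102 to 0.157% in 14559R. The mitochondrial share thus fell with treatment in 14559TN and rose in 14559R. These shares were described only. Their part in the result was not tested.

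Most genes with a called difference were called in 14559TN and not in 14559R. Of the 1054 genes above 0, 963 fell in 14559TN and were not called in 14559R. The 1054 had a median log2 response of -1.18 in 14559TN and 0.05 in 14559R. Of the 542 genes below 0, 480 rose in 14559TN and were not called in 14559R, and the medians over the 542 were 1.24 and -0.15. For 84 and 58 genes neither response was called on its own. Only 5 genes were called in both clones with opposite signs, and 1 gene, Bcl2, was called in both clones in the same direction and also for the difference. The median over all tested genes was 0.03 for the difference. In the called set, 159 genes had a group mean under 1 CPM and 15 had a group without a count, so the size of their log2 values is uncertain.

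The responses in the clones share no library, so their signs can be set side by side. Of the 1647 genes that rose in 14559TN, 1076 (65.3%) had a value above 0 in 14559R, with median log2 responses of 1.04 and 0.12. Of the 2124 genes that fell in 14559TN, 1409 (66.3%) had a value below 0 in 14559R, with medians of -0.89 and -0.10. A called difference was found for 29.3% of the first set and 45.5% of the second. None of these genes had a called difference with a larger response of the same sign in 14559R. The sets were chosen by the 14559TN response, which also enters the difference. These shares and this count therefore lean in advance toward a larger response in 14559TN.

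**Figure D1:**
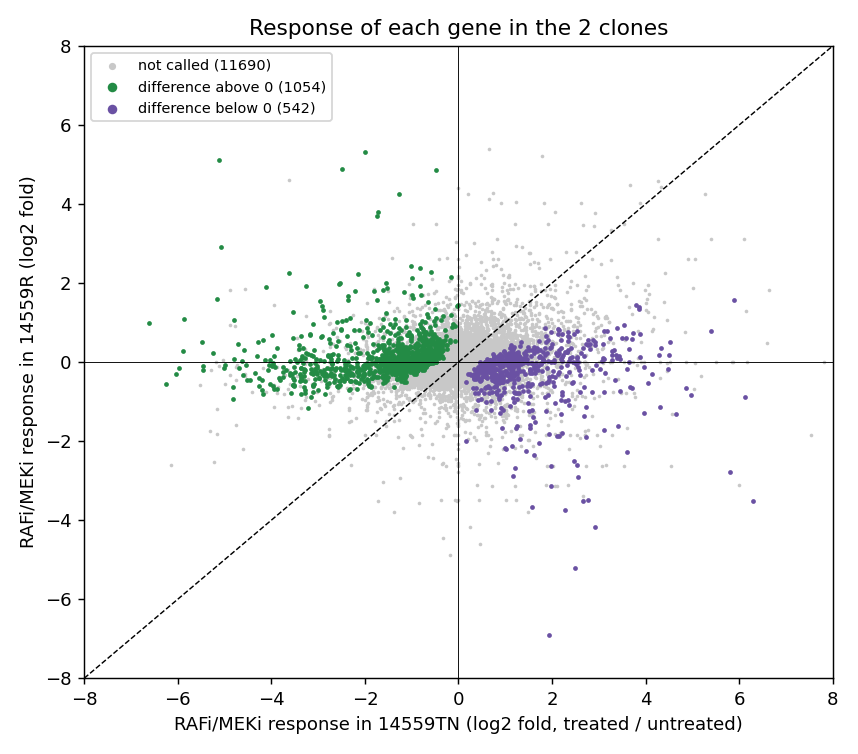
Each point is 1 of 13286 genes, with its log2 response to RAFi/MEKi in 14559TN on the horizontal axis and in 14559R on the vertical axis, and the dashed line marks equal responses. The 1054 genes called above 0 lie mainly at the left and the 542 called below 0 mainly at the right, both close to the horizontal line of no response in 14559R.

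Of 19 tested MAPK output genes, which ERK signalling switches on, 6 were called above 0 and 1 below 0, against 7.93% and 4.08% of all genes. The list median was 0.85 against 0.03 over all genes. In 14559TN 8 of the 19 fell and 1 rose, and in 14559R none was called. Without a filter on low counts 10 were called above 0. Etv4 (ENSMUSG00000017724, chr11:101769742-101785371 of GRCm38), an ETS transcription factor gene directly downstream of ERK, read 111, 107 and 122 CPM in untreated and 9.94, 12.7 and 4.86 CPM in treated 14559TN, and 125, 109.8 and 128 CPM and 99.5, 129 and 139 CPM in 14559R. The 3 treated 14559TN tumours lay far below the other 9, and the treated and untreated 14559R tumours overlapped. The log2 response difference was 3.61 ± 0.45 (SE, 3 tumours per group, edgeR adjusted p = 6.25e-06), from -3.59 ± 0.35 in 14559TN and 0.01 ± 0.28 in 14559R. Fosl1, which encodes the AP-1 member FRA-1, had 48, 36.6 and 59 CPM against 5.96, 7.10 and 3.43 CPM in 14559TN and 113, 65.9 and 82.3 CPM against 73.5, 83.5 and 166 CPM in 14559R. Its difference was 3.39 ± 0.50 (edgeR adjusted p = 6.1e-05), and again only the treated 14559TN tumours stood low. Ccnd1 encodes cyclin D1, which drives entry into the cell cycle. It read 2407, 2194 and 2579 CPM and, treated, 768, 678 and 542 CPM in 14559TN, and 2269, 1593 and 2307 CPM and 1306, 1763 and 2015 CPM in 14559R, a difference of 1.57 ± 0.26 (edgeR adjusted p = 8.36e-05). Plaur, the urokinase receptor gene, stood at 3.97 ± 0.52 (edgeR adjusted p = 3.07e-06). Myc also passed the test at 3.53 ± 0.93 (edgeR adjusted p = 0.0105), but with 0.33 ± 0.296 CPM in treated 14559TN and 5.37 ± 3.57 CPM in treated 14559R (mean ± SD, n = 3) it was read by few counts, and its call was lost without untreated 14559TN replicate 3.

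Of the feedback inhibitors in the list, Spry2 was the only one called. Spry2, a Sprouty inhibitor of receptor signalling, rose in 14559TN from 75.6, 62.7 and 80.9 CPM to 135, 178 and 117 CPM and read 121, 97.6 and 95.8 CPM and 142, 118 and 122 CPM in 14559R. Its difference was -0.69 ± 0.21 (edgeR adjusted p = 0.0238), and without treated 14559R replicate 3 it stood at -0.66 and was no longer called, 1 of 6 alternatives out of 20 that lost the call. Dusp6, the phosphatase of ERK, spanned 75.9, 81.1 and 109 CPM in untreated and 31.8, 127 and 101 CPM in treated 14559TN, and 309, 502 and 241 CPM and 333, 230.5 and 293 CPM in 14559R. The treated 14559TN values ranged on both sides of the untreated ones, the difference was -0.27 with a 95% interval of -1.54 to 1.00, and it was not called (edgeR adjusted p = 0.84). Spry4 stood at 0.98 (95% interval 0.27 to 1.70, edgeR adjusted p = 0.0625), also not called, though 5 of 20 alternatives called it. Of 21 genes for RAS, RAF, MEK, ERK and their adaptors 0 were called in either direction (median 0.05), against 12% of all genes. Braf in this list stood at -0.21 and Map2k1 at 0.66. In the immediate-early and AP-1 list 2 of 18 genes were called above 0, against 7.93% of all genes. They were Fosl1 and Fosl2 (0.84 ± 0.19, edgeR adjusted p = 0.00322). The list median was 0.05, and 5 were called without a filter on low counts.

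**Figure D2:**
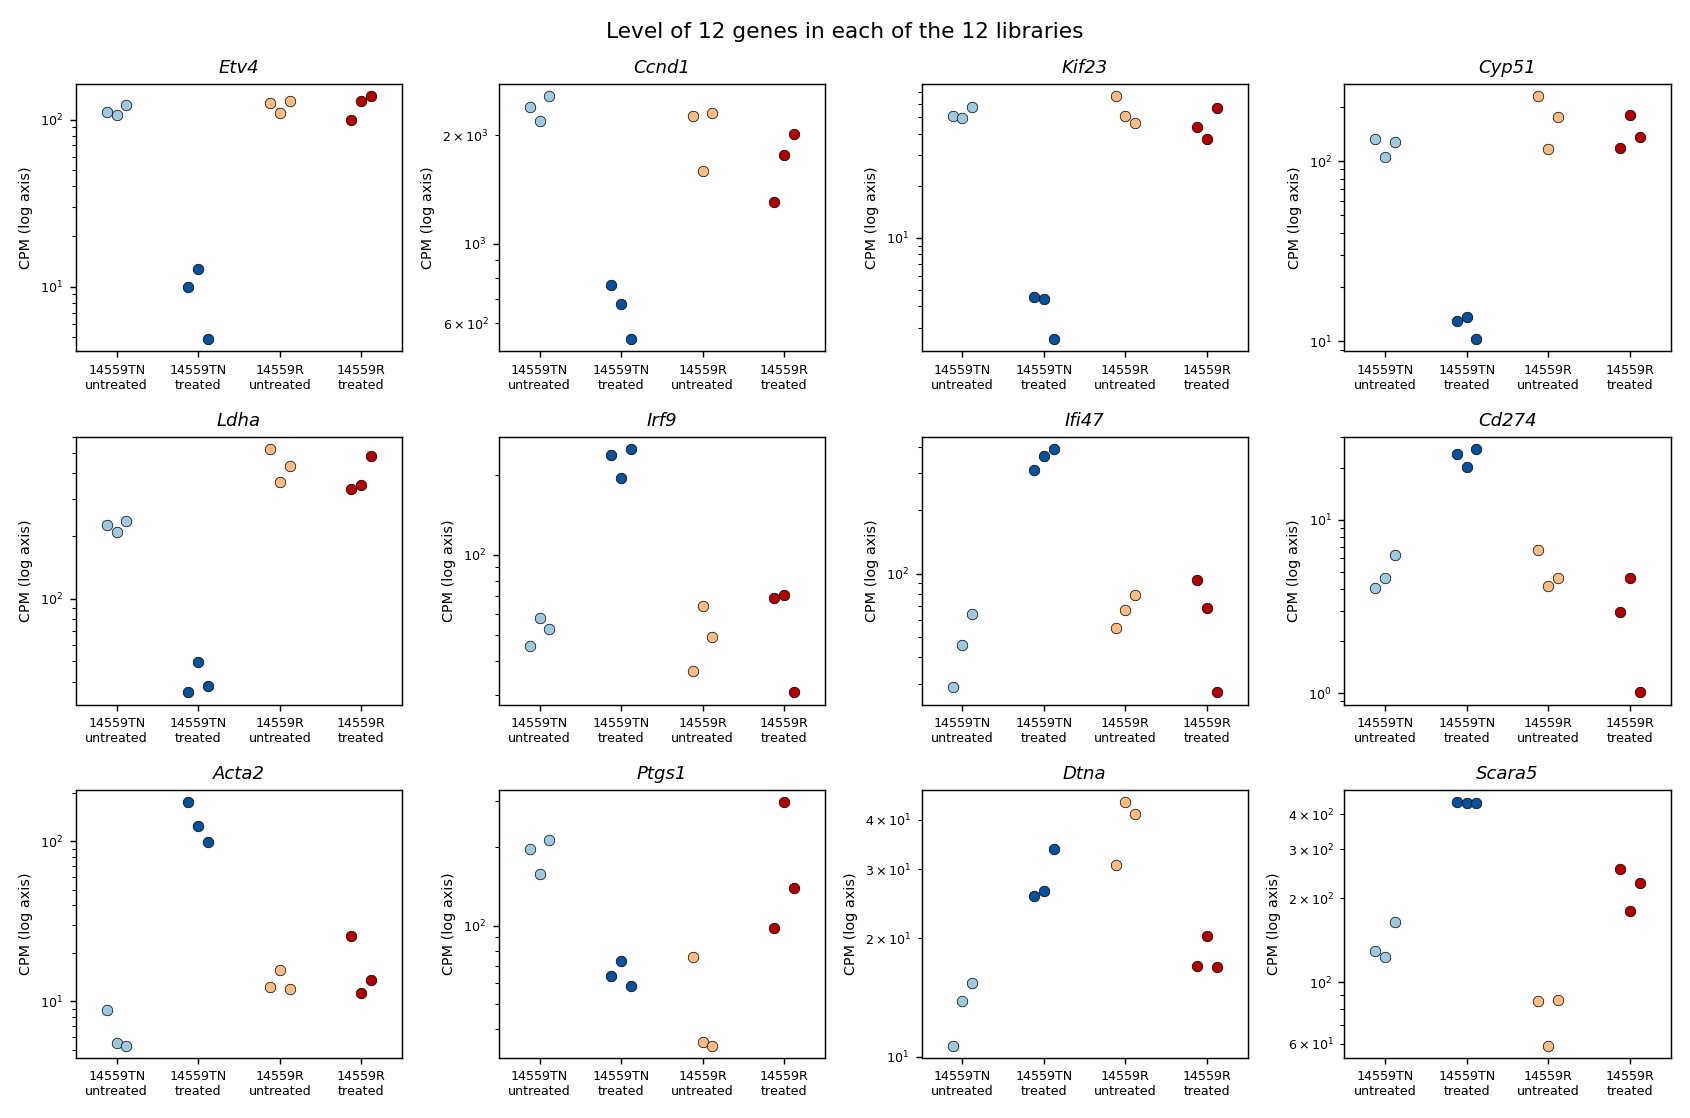
Each panel gives the level of 1 gene in CPM on a log axis in the 12 libraries, 1 point per tumour and 3 tumours per group. In the panels for Etv4, Ccnd1, Kif23, Cyp51 and Ldha the treated 14559TN tumours lie below all others, and in those for Irf9, Ifi47, Cd274 and Acta2 they lie above all others.

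Genes of cell division formed the group with the most called members. Of 34 mitosis genes 32 were called above 0 and 0 below, against 7.93% and 4.08% of all genes, with a median of 2.86. All 34 fell in 14559TN (median -3.07) and none was called in 14559R (median -0.29). The summed level of the list was 1442, 1486 and 1748 CPM in untreated 14559TN and 282, 225 and 202 CPM in treated 14559TN, against 2554, 1772 and 2083 CPM and 1556, 1526 and 1908 CPM in 14559R. The sums of treated and untreated 14559R overlapped, while those of 14559TN were far apart. Mki67 encodes the Ki-67 antigen of dividing cells. Its levels were 60.9, 69.1 and 80.7 CPM and 7.67, 6.27 and 7.43 CPM in 14559TN, and 75.5, 55.2 and 57.4 CPM and 41, 46.9 and 59.9 CPM in 14559R, which gave a difference of 2.96 ± 0.39 (edgeR adjusted p = 6.25e-06). Kif23 (chr9:61915905-61946774), a kinesin of the central spindle needed for cytokinesis, had 50.8, 49.2 and 57.5 CPM and 4.54, 4.39 and 2.57 CPM in 14559TN and 66.6, 50.6 and 46.2 CPM and 43.8, 37.6 and 56.3 CPM in 14559R. Among all 13286 genes its difference, 3.50 ± 0.30, was one of those with the smallest p (edgeR adjusted p = 1.67e-09). Cenpf (3.23 ± 0.29, edgeR adjusted p = 3.22e-09) and Cenpa (3.38 ± 0.36, edgeR adjusted p = 1.11e-07) encode centromere proteins and also lay above 0. The mitosis genes not called were Cdk1 (0.73) and Cdc25c (1.02).

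In the DNA replication list 20 of 32 genes were called above 0 and 0 below (median 1.29), against 7.93% and 4.08% of all genes. Of this list 29 fell in 14559TN. Mcm6 encodes a subunit of the replicative helicase. It read 66.2, 58.7 and 83.7 CPM untreated and 8.23, 10.7 and 6.28 CPM treated in 14559TN, and 89.2, 52.7 and 89.4 CPM and 54.2, 48.4 and 85.6 CPM in 14559R. The treated 14559TN tumours were low and the rest overlapped, with a difference of 2.73 ± 0.32 (edgeR adjusted p = 8.56e-07). Mcm2 stood at 1.96 ± 0.31 and Rrm1, the large subunit of ribonucleotide reductase, at 1.56 ± 0.24. Without treated 14559R replicate 3 the count was 14 of 32 and the median 1.09, and without untreated 14559R replicate 2 it was 13. Of 22 Fanconi and homologous recombination genes 8 were called above 0 (median 1.02), against the same 7.93%. Among these 8 were Fancd2 (3.12 ± 0.71), Exo1 (3.63 ± 0.89) and Rad51ap1 (1.95 ± 0.49). The count of 8 became 5 without treated 14559R replicate 3, 4 without treated 14559TN replicate 3 and 4 with limma-voom. Among cyclins, CDKs and their inhibitors 8 of 22 were called above 0 and 3 below 0, against the same 7.93% and 4.08%. Above 0 were Ccne2 (3.86 ± 0.59) and Ccna2 (3.14 ± 0.43), the cyclins of S phase entry and progression, with E2f2 (3.38), E2f8 (2.57) and E2f7 (2.30). Ccnd2 (-1.70), Ccnd3 (-1.19) and Cdkn2c (-0.90) were the members below 0. The D cyclins thus parted, since Ccnd1 lay above 0 while Ccnd2 and Ccnd3 lay below. Cdkn1b, which encodes the CDK inhibitor p27, was not called (-0.38, 95% interval -0.81 to 0.05, edgeR adjusted p = 0.261).

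Promoters of called cell cycle genes were searched because they moved together. The 250 bases upstream of RefSeq starts (GRCm38.p6) were searched on both strands in a table of 32851 promoters. E2F motifs, spelled TTTGGCGC or TTTCCCGC, were present in 5 of 19 promoters of called DNA replication genes (26.3%) and in 0 of 29 promoters of called mitosis genes, against 1.3% of all promoters. The cell cycle genes homology region, spelled TTTGAA or TTCGAA, was present in 9 of 29 mitosis promoters (31%) against 17.1% of all. CCAAT was present in 20 of 29 mitosis promoters (69%) and 13 of 19 replication promoters (68.4%) against 33.8%. The table held 28 of the 32 called mitosis genes and 18 of the 20 called replication genes. Among the 9 replication genes not called that it held, CCAAT was present for 5 and an E2F motif for 1. The 1 mitosis gene not called that it held had CCAAT and the homology region. Of the table's starts 35% matched a transcript start of the GENCODE annotation exactly. Those of the windows shown for Mcm6, Mki67, Hmgcs1, Gbp7 and Stat2 did not. The Mcm6 and Mki67 windows carry these letters more than once and are shown for that reason, both on the minus strand. Mcm6 lies at chr1:128359715-128359845 with E2F motifs in capitals, and Mki67 at chr7:135716442-135716597 with CCAAT on either strand and TTTGAA in capitals. A match describes the letters and does not show binding.
Mcm6: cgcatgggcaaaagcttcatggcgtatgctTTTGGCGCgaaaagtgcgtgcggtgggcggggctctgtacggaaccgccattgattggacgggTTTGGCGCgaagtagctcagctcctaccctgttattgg
Mki67: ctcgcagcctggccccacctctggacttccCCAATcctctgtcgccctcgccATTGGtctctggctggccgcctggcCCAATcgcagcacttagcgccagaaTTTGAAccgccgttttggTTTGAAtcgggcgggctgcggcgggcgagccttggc

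**Figure D3:**
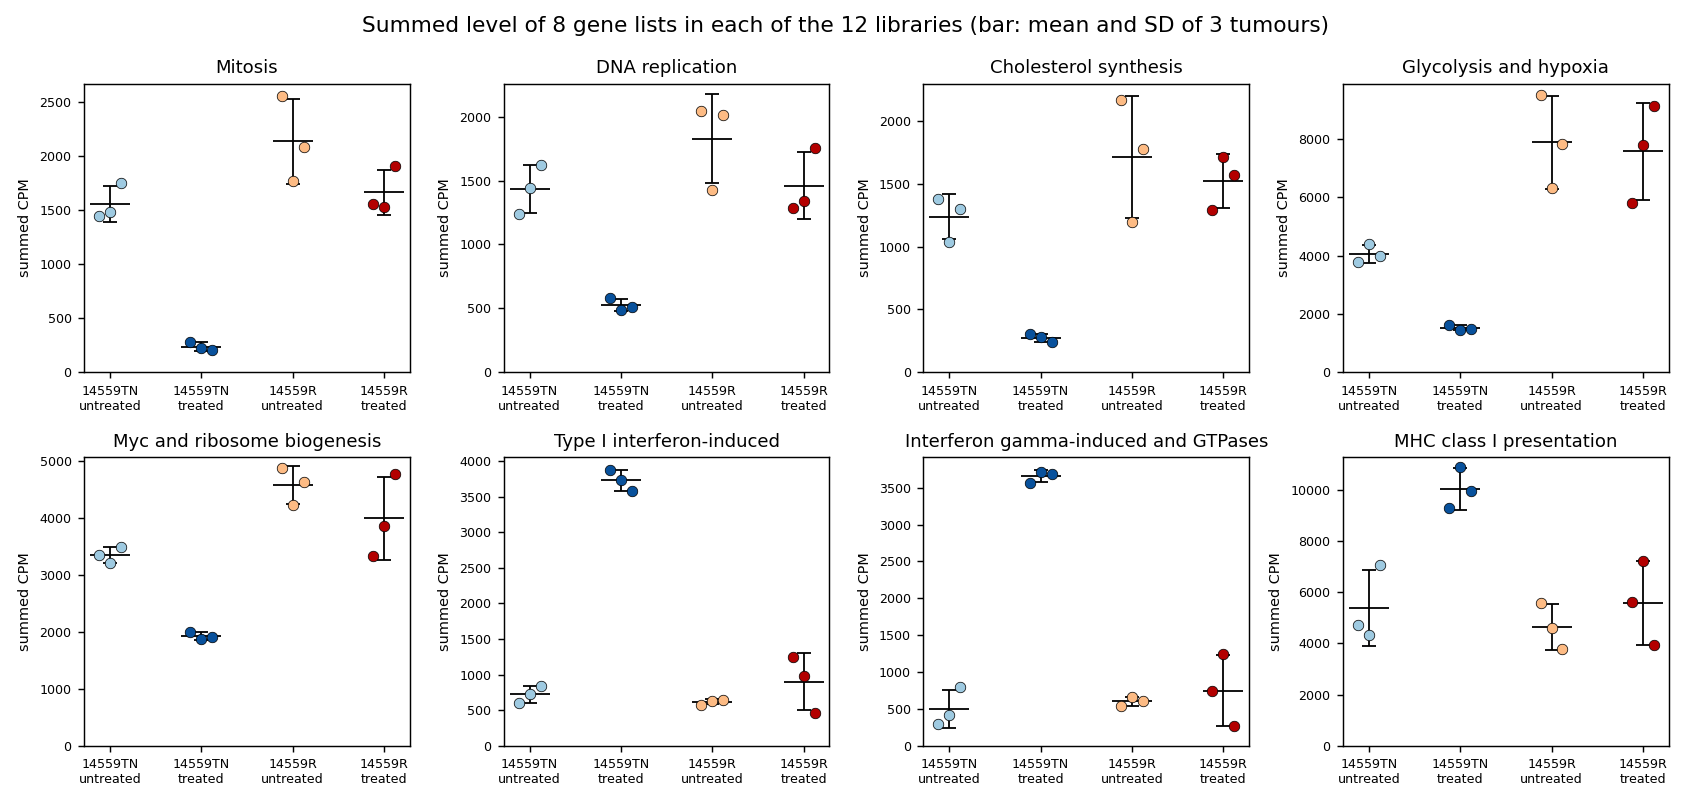
Each panel gives the summed CPM of 1 gene list in the 12 libraries, with 1 point per tumour and a bar for the mean and SD of 3 tumours. Mitosis, DNA replication, cholesterol synthesis, glycolysis and ribosome biogenesis are lowest in treated 14559TN, and the interferon lists are highest there, with treated 14559R replicate 3 the lowest of its group in the 3 interferon and MHC panels.

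Genes of sterol synthesis were also called above 0. Of 24 cholesterol synthesis genes 17 were called above 0 and 0 below, against 7.93% and 4.08% of all genes, with a median of 1.84. In 14559TN 23 of them fell (median -2.11), and in 14559R none was called (median -0.21). Summed levels were 1375, 1034 and 1300 CPM in untreated 14559TN and 304, 279 and 239.9 CPM in treated 14559TN, and 2166, 1196 and 1774 CPM and 1292, 1715 and 1571 CPM in 14559R. Cyp51 (chr5:4081145-4104746), which encodes lanosterol demethylase, had 133, 105 and 128 CPM and 13.1, 13.6 and 10.3 CPM in 14559TN, and 230.4, 117 and 176 CPM and 119, 181 and 137 CPM in 14559R, a difference of 3.04 ± 0.34 (edgeR adjusted p = 8.56e-07). Treated 14559TN alone was low. Hmgcs1, at the entry of the mevalonate pathway, stood at 1.94 ± 0.31 (edgeR adjusted p = 7.63e-05), Sqle, squalene epoxidase, at 2.95 ± 0.40, and Stard4, a cholesterol carrier, at 4.46 ± 0.54. Insig1, a brake on sterol regulation, was also called but was read at low level, with means of 5.00 CPM in untreated 14559TN and 4.25 CPM in treated 14559R. In the fatty acid list 4 of 12 genes were called above 0, against the same 7.93%: Fads1 (1.6), Elovl6 (1.96 ± 0.37), Scd1 (1.06 ± 0.26) and Fads2, the last at low level.

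Sterol response elements, spelled TCACNCCAC or TCACNCCAT, were present in 3 of 10 promoters of called cholesterol genes (30%) against 1.71% of all promoters, and CCAAT in 10 of 10 (100%) against 33.8%. The table held 10 of the 17 called genes. Among the 6 genes not called that it held, CCAAT was present for 5 and the sterol element for 0. The Hmgcs1 window is shown as an example, with the element in capitals, at chr13:119690184-119690252 on the plus strand.
Hmgcs1: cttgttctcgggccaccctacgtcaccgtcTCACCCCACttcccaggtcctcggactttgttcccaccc

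Members of the lists of energy and amino acid metabolism were also called above 0. Of 24 glycolysis and hypoxia genes 12 were called above 0 and 0 below (median 1.15), against 7.93% and 4.08% of all genes. Ldha, lactate dehydrogenase A, read 226, 210.2 and 236 CPM and 35.5, 49.9 and 38 CPM in 14559TN, and 525, 364 and 433 CPM and 336, 352 and 484 CPM in 14559R. Its difference was 2.27 ± 0.22 (edgeR adjusted p = 2.39e-08). Pkm, pyruvate kinase, stood at 2.30 ± 0.30 and the hypoxia marker Ankrd37 at 3.12 ± 0.57. Vegfa, an angiogenic factor, stood at 0.83 ± 0.20 (edgeR adjusted p = 0.00452), whereas the glucose transporter gene Slc2a1 (0.65) was not called. Of 29 nuclear genes for oxidative phosphorylation 11 were called above 0 (median 0.57), against the same 7.93%, and 6 without untreated 14559R replicate 2. The 11 included Cox5a (1.05 ± 0.18), Atp5b (0.81 ± 0.16) and Atp5d (0.86 ± 0.19). In the ATF4 and amino acid list 5 of 22 were called above 0 (median 1.17), against 7.93% of all genes. That count was 4 without treated 14559R replicate 3, 3 without treated 14559TN replicate 3 or untreated 14559R replicate 2, 8 without treated 14559R replicate 1 and 9 with no filter on low counts. Psat1, an enzyme of serine synthesis, had 84.3, 85.7 and 106 CPM and 9.94, 3.76 and 6.00 CPM in 14559TN, and 189, 144 and 188 CPM and 69.6, 102 and 224 CPM in 14559R, a difference of 3.45 ± 0.50 (edgeR adjusted p = 5.73e-05). Within treated 14559R, replicate 3 stood above replicates 1 and 2 for Psat1. Mthfd2, of mitochondrial folate metabolism, stood at 2.90 ± 0.60, and the transcription factor gene Cebpb at 1.37 ± 0.33. The transcription factor gene Atf4 itself was at 0.27 and not called. Of 24 genes of Myc and ribosome biogenesis 11 were called above 0, such as Nme1 (1.35 ± 0.22) and Ddx21 (1.01 ± 0.20), against the same 7.93% (list median 0.66). That count was 6 without treated 14559R replicate 3, and ranged from 4 (without untreated 14559TN replicate 3) to 7 without each of 8 single libraries. Endoplasmic reticulum chaperones had 1 of 18 called on either side, against 7.93% of all genes above 0 and 4.08% below. They were Edem1 (1.35 ± 0.26) and Sel1l (-0.53 ± 0.18), the latter lost in 10 of 20 alternatives, treated 14559R replicate 3 left out being one.

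Bcl2 encodes a protein that blocks apoptosis. It rose in both clones, from 62.9, 61.5 and 67.1 CPM to 244, 215 and 234 CPM in 14559TN and from 26.2, 39.8 and 31.3 CPM to 62.4, 60.8 and 55.3 CPM in 14559R. No treated tumour overlapped the untreated tumours of its clone, and the response was 1.85 ± 0.19 in 14559TN and 0.87 ± 0.19 in 14559R, a difference of -0.98 ± 0.27 (edgeR adjusted p = 0.0127) that was not called without untreated 14559R replicate 2. Mcl1, another survival gene, stood at 1.02 ± 0.20 (edgeR adjusted p = 0.000784) and Bok, a pro-apoptotic relative, at 2.91 ± 0.45 (edgeR adjusted p = 3.19e-05). Of 13 BCL2 family genes these 3 were called, 2 above 0 and 1 below (median 0.25), against 7.93% and 4.08% of all genes. Of 19 p53 targets 4 were called above 0 (median 0.70), against the same 7.93%, with Cdkn1a, the gene of the CDK inhibitor p21, at 2.09 ± 0.45 (edgeR adjusted p = 0.00336), Gtse1 at 2.82 ± 0.92 and Zmat3 at 0.81 ± 0.25. Without treated 14559R replicate 3 only 1 of the 19 was called, without each of 9 other single libraries 1 or 2, and with limma-voom 2. Gtse1 and Zmat3 each lost the call in 9 of 20 alternatives.

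The type I and interferon gamma lists held the most members below 0. Of 38 type I interferon-induced genes 14 were called below 0 and 0 above, against 4.08% and 7.93% of all genes, with a median of -1.95. In 14559TN 37 of the 38 rose (median 2.83), whereas in 14559R none was called (median 0.81). The summed level was 595, 725 and 841 CPM in untreated and 3876, 3733 and 3572 CPM in treated 14559TN, and 576, 635 and 638 CPM and 1252, 980.2 and 462 CPM in 14559R. Treated 14559R replicates 1 and 2 lay above, and replicate 3 below, all untreated 14559R tumours, and all 3 lay far under treated 14559TN. Without replicate 3 there were 9 of 38 called and the median was -1.66. The count was also 9 without untreated 14559TN replicate 1, and 26 with no filter on low counts. Ifih1, the sensor MDA5 for double-stranded RNA, stood at -2.62 ± 0.47 (edgeR adjusted p = 0.000421), Ifi27 at -1.39 ± 0.24 and Lgals3bp at -1.55 ± 0.34. Isg15, a ubiquitin-like protein gene, had 5.33, 7.38 and 8.82 CPM and 42.9, 71 and 55.4 CPM in 14559TN, and 12.2, 13.4 and 11 CPM and 38.3, 19.3 and 9.35 CPM in 14559R. Its difference of -2.10 had a 95% interval of -3.96 to -0.24 and was not called (edgeR adjusted p = 0.139). In 2 of 20 alternatives it was called. The treated 14559R tumours ran from above to below the untreated ones. Oas2 was read by few counts in untreated tumours, with 5.11, 4.60 and 5.43 CPM in treated 14559TN and 0.454, 0.244 and 0 CPM in treated 14559R. Its difference was not called, nor was it in any of 20 alternatives.

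Genes induced by interferon gamma and the immunity-related GTPases gave 11 of 19 called below 0 and 0 above (median -2.48), against 4.08% and 7.93% of all genes. The summed level of this list was 297, 415 and 791 CPM and 3568, 3714 and 3691 CPM in 14559TN. In 14559R it was 542, 665 and 613 CPM and 743, 1238 and 266 CPM. Of the list 7 were called without treated 14559R replicate 3 or without untreated 14559R replicate 2. Ifi47, an immunity-related GTPase, read 28.9, 45.8 and 64.3 CPM and 311, 361 and 392 CPM in 14559TN, and 55.1, 67.3 and 79.4 CPM and 93.9, 68.6 and 27.3 CPM in 14559R. All treated 14559TN tumours lay above the other 9, and the difference was -3.02 ± 0.58 (edgeR adjusted p = 0.00144). Cd274 encodes PD-L1, the ligand that restrains T cells. It had 4.06, 4.61 and 6.30 CPM and 24.1, 20.3 and 25.7 CPM in 14559TN, and 6.73, 4.16 and 4.64 CPM and 2.95, 4.64 and 1.01 CPM in 14559R, a difference of -3.05 ± 0.72 (edgeR adjusted p = 0.00502). Gbp7, a guanylate-binding protein gene, stood at -2.48 ± 0.53 (edgeR adjusted p = 0.00378). Several GTPase genes have close relatives, among which reads may be shared.

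Of 21 genes for interferon sensing and signalling 6 were called below 0 and 0 above (median -1.03), against 4.08% and 7.93% of all genes. Irf9 (chr14:55603571-55610030), a DNA-binding subunit of the interferon-activated complex, had 45.7, 58.1 and 52.7 CPM and 236, 194 and 249 CPM in 14559TN, and 36.9, 64.5 and 49.4 CPM and 68.9, 70.6 and 30.6 CPM in 14559R. Treated 14559TN was high in each tumour, while in treated 14559R replicate 3 was the lowest of all 14559R tumours. The difference was -1.95 ± 0.36 (edgeR adjusted p = 0.000616), with Stat2 at -1.58 ± 0.35 (edgeR adjusted p = 0.00322). The receptor genes Ifnar1 (0.49), Ifnar2 (-0.50), Ifngr1 (-0.27) and Ifngr2 (0.64) were not called. Of 18 MHC class I presentation genes 4 were called below 0 (median -1.29), against the same 4.08%. Those called were Psmb10 (-1.90 ± 0.42), Tapbp (-1.55 ± 0.39), Tapbpl (-1.23 ± 0.35) and Erap1 (-1.15), which act in the proteasome, in peptide loading and in peptide trimming. B2m, the light chain of class I molecules, had 3867, 3511 and 5486 CPM and 6380, 7756 and 7142 CPM in 14559TN, and 3996, 3357 and 2628 CPM and 4144, 5280 and 2994 CPM in 14559R. The groups of 14559R overlapped, and its difference was not called (-0.41, 95% interval -1.34 to 0.52, edgeR adjusted p = 0.622). H2-K1, a class I heavy chain gene that may share reads with near-identical H2 genes, stood at -1.40 (95% interval -3.23 to 0.43, edgeR adjusted p = 0.344). It was not called, except in 1 of 20 alternatives. Without treated 14559R replicate 3, 4 sensing genes and 2 presentation genes, Tapbpl no longer among them, were called. The presentation count was 11 with no filter on low counts and 7 in the 12 libraries alone. The macrophage markers listed above ran from 33.8 to 155 CPM over the 12 libraries, and with their mean as a covariate 14 type I, 10 interferon gamma, 4 sensing and 4 presentation genes were called. The part of macrophages in these lists was not tested beyond that fit.

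The core of the interferon-stimulated response element, which is GAAA, a pair of free bases and GAAA again, searched on both strands, was present in 6 of 10 promoters of called interferon gamma genes (60%) in 1 of 7 promoters of called sensing genes (14.3%) and in 0 of 3 of called presentation genes, against 2.98% of all promoters. Among genes not called it was present for 5 of 5 interferon gamma, 0 of 13 sensing and 2 of 12 presentation genes. It was present in 0 of 11 promoters of called type I genes (9 of 14 genes matched) and in those of 9 of 18 type I genes not called. The windows of Gbp7 (chr3:142530253-142530322) and Stat2 (chr10:128270248-128270315), both on the plus strand, are shown with the element in capitals as TTTCAGTTTC, the reverse complement of the searched form.
Gbp7: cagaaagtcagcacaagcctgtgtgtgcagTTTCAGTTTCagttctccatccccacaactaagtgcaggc
Stat2: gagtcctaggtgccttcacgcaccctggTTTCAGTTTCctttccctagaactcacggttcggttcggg

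**Figure D4:**
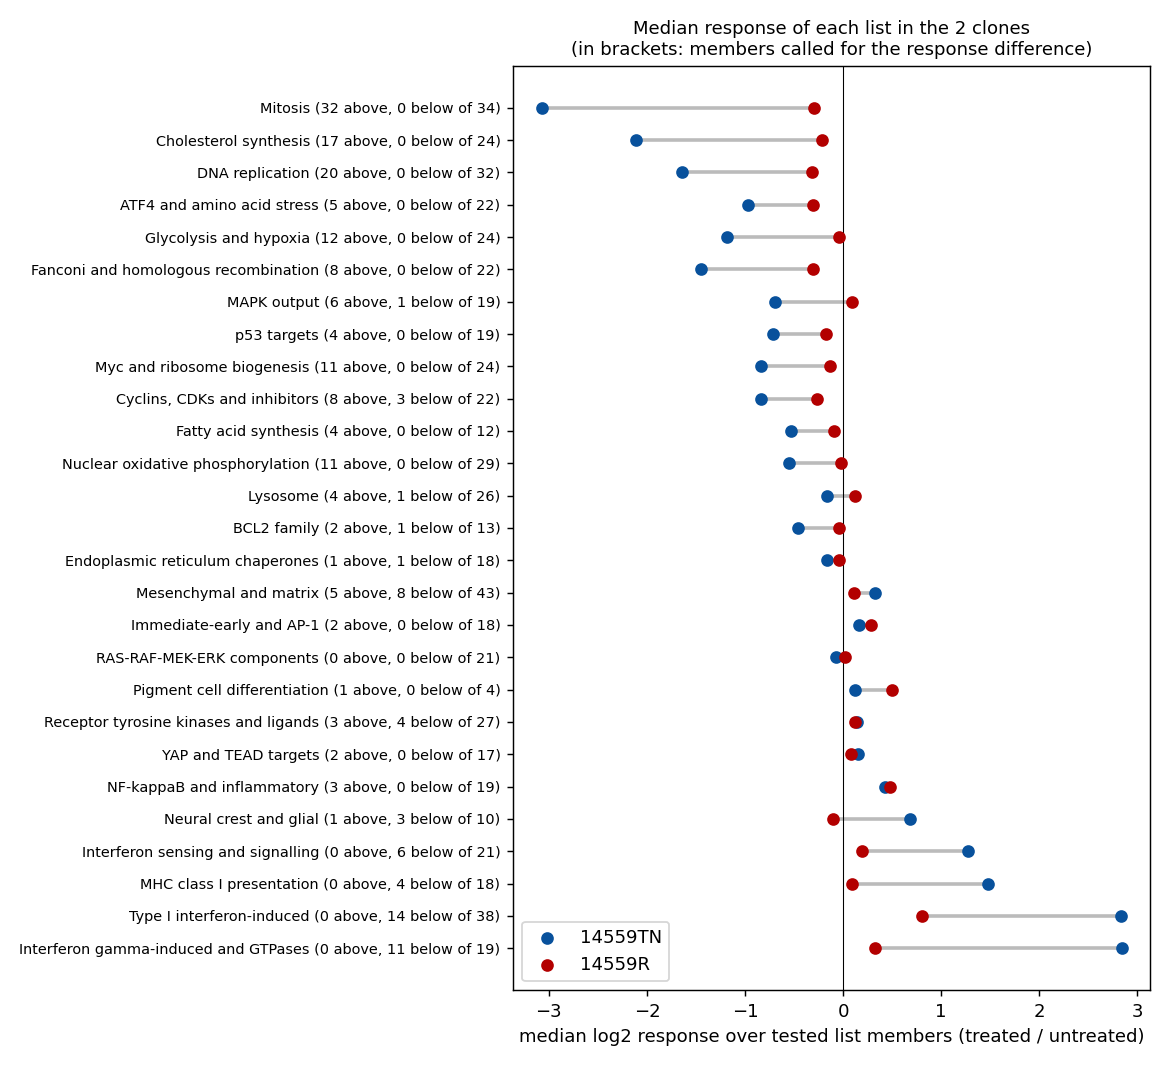
Each row is 1 of the gene lists, with the median log2 response of its tested members in 14559TN (blue) and in 14559R (red). Mitosis at the top (-3.07 and -0.29) and the type I (2.83 and 0.81) and interferon gamma (2.84 and 0.33) lists at the bottom have wide gaps, and the 14559R medians run from -0.32 to 0.81.

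Matrix and contractile genes went both ways. Of 43 mesenchymal and matrix genes 5 were called above 0 and 8 below 0, with a median of 0.06. Over all tested genes the shares were 7.93% and 4.08%. The count below 0 was 6 without treated 14559R replicate 3, 5 without untreated 14559TN replicate 3 or untreated 14559R replicate 2, and 4 in the 12 libraries alone. Fn1, fibronectin, read 4438, 5237 and 3973 CPM and 1633, 1981 and 1925 CPM in 14559TN, and 2865, 3410 and 2680 CPM and 4085, 5788 and 2961 CPM in 14559R, a difference of 1.82 ± 0.24 (edgeR adjusted p = 3.48e-06). Timp1, an inhibitor of metalloproteinases, stood at 2.19 ± 0.27 and Tgfbi, a matrix protein gene, at 1.15 ± 0.18. Below 0 were Postn (-2.89), Fbln5 (-3.17), Timp3 (-1.72) and Zeb2 (-0.90), among others. Acta2 (chr19:34241090-34255336) encodes smooth muscle actin. It rose in 14559TN from 8.88, 5.53 and 5.29 CPM to 176, 124 and 99.7 CPM and read 12.2, 15.7 and 12 CPM and 25.6, 11.2 and 13.6 CPM in 14559R. Treated 14559TN lay above all other tumours, and the difference was -3.98 ± 0.81 (edgeR adjusted p = 0.00257). Mylk, myosin light chain kinase, stood at -3.41 ± 0.59 (edgeR adjusted p = 0.000436). The listed markers of smooth muscle and pericytes were read unevenly. Myh11 (6 counts in the 12 libraries together), Des (5), Cnn1 (5), Abcc9 (7), Kcnj8 (3) and Higd1b (1) were almost unread. Others were read, with 9949 counts of Pdgfrb, 5487 of Cspg4, 2017 of Acta2, 1307 of Mcam, 400 of Notch3 and 288 of Rgs5. Of the 6 tested markers of these cells only Acta2 and Cspg4 (2.05) were called. The source of these reads was not tested. Axl, a receptor kinase linked to drug tolerance, had 956, 904 and 968 CPM and 1061, 763 and 811 CPM in 14559TN, and 811, 778 and 944 CPM and 719, 766 and 799 CPM in 14559R. Treated and untreated tumours overlapped in both clones, and its difference was -0.05 with a 95% interval of -0.41 to 0.31 (edgeR adjusted p = 0.913).

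Among receptor tyrosine kinases and ligands 3 of 27 were called above 0, the EGF family ligands Ereg (2.14 ± 0.35), Btc (2.23 ± 0.64) and Hbegf (1.71), and 4 below 0, Egfr (-1.55), Erbb2 (-1.45), Igf1 (-2.34) and Nrg1 (-2.87 ± 0.85). The median of the list was -0.04, against 7.93% of all genes called above 0 and 4.08% below. The count below 0 was 2 without treated 14559R replicate 3, 0 without untreated 14559TN replicate 1 or 3, 1 without treated 14559TN replicate 2 or treated 14559R replicate 2, and 2 without treated 14559TN replicate 3 or untreated 14559R replicate 1 or 3. Btc lost the call in 8 of 20 alternatives, treated 14559R replicate 3 left out among them, and Nrg1 in 5. In the neural crest list 3 of 10 were below 0, against the same 4.08%, and 2 without treated 14559R replicate 3. Among the 3 was Snai2 (-2.04 ± 0.43, edgeR adjusted p = 0.00175), a transcription factor of the neural crest. Snai2 had 18.8, 22.7 and 24.2 CPM and 55.9, 97.3 and 90.3 CPM in 14559TN, and 34.4, 31.9 and 36.2 CPM and 36, 25.1 and 30.8 CPM in 14559R. Aqp1, a water channel gene, was the member above 0 (1.31 ± 0.29). Mitf was not called (0.38, 95% interval -0.28 to 1.04, edgeR adjusted p = 0.499). Of 4 tested pigment cell genes only Gpnmb passed (1.81 ± 0.44), against the same 7.93%. Of 26 lysosome genes 4 were called above 0 and 1 below, against the same 7.93% and 4.08%. Those above 0 included the cathepsins Ctsl (1.46 ± 0.29) and Ctsb (0.71 ± 0.18) and the galactosidase Gla (1.71 ± 0.45). Ctsb was not called without untreated 14559R replicate 2. Of 17 YAP and TEAD genes 2 were called above 0 (median -0.05), against the same 7.93%: Wwtr1 (1.11 ± 0.17) and Ccn1 (2.03 ± 0.51), the latter not called in the 12 libraries alone. Of 19 NF-kappaB genes 3 were called above 0 (median -0.24), against the same 7.93%: Ptgs2 (3.60 ± 0.75), Nfkbiz (1.09 ± 0.32) and Tnfaip2 (0.84 ± 0.22). Nfkbiz lost the call in 6 of 20 alternatives, treated 14559R replicate 3 left out among them, and Tnfaip2 in 2, without untreated or treated 14559R replicate 2. None of 21 genes of dissociation stress was called (median -0.12), against the same 7.93% above 0 and 4.08% below.

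Among called genes read at 1 CPM or more in every group and 10 CPM or more in one, the 12 with the highest difference had varied functions. Kcnk3, a potassium channel gene, had 29.4, 29.5 and 30.5 CPM and 0.852, 1.88 and 2.29 CPM in 14559TN, and 11, 12.2 and 2.93 CPM and 12.7, 64.5 and 21.5 CPM in 14559R. The treated 14559R values spread widely, and the difference was 6.03 ± 0.90 (edgeR adjusted p = 9.72e-05). Trbc2, a constant segment of the T cell receptor beta chain, read 39.9, 33.2 and 43.9 CPM and 1.70, 0.627 and 2.00 CPM in 14559TN, and 28.9, 28.7 and 38.9 CPM and 43.8, 82.3 and 77.5 CPM in 14559R. It stood at 5.88 ± 0.54 (edgeR adjusted p = 6.52e-08), while Cd3g had 0 counts, Cd3e 3 counts and Cd3d 1 count in the 12 libraries. Trem2, a receptor gene of myeloid cells, had 19.8, 20.6 and 13.9 CPM and 1.42, 1.67 and 1.14 CPM in 14559TN, and 0.997, 2.31 and 0 CPM and 6.35, 7.33 and 2.53 CPM in 14559R (5.88 ± 0.89, edgeR adjusted p = 2.71e-05). With the mean of the macrophage markers as a covariate it stayed called. That mean includes Laptm5, which was higher in 14559R, and the source of the Trem2 reads was not tested. S100a4, a calcium-binding protein gene, fell from 6409, 6469 and 6689 CPM to 649.9, 539.6 and 497 CPM in 14559TN and read 1258, 2593 and 972 CPM and 2069, 3273 and 2081 CPM in 14559R. Untreated 14559TN tumours lay above all 14559R tumours, and the difference in response was 4.16 ± 0.49 (edgeR adjusted p = 6.25e-06). Hao1 (4.11 ± 0.52), Rcan1 (4.07 ± 0.63), the calcineurin regulator, Wnt7b (4.25 ± 0.79), a Wnt ligand, Nr4a2 (3.91 ± 0.60), an orphan nuclear receptor, Hmmr (3.98 ± 0.47), Notum (4.50 ± 1.08), which inactivates Wnt ligands, and Slc37a2 (4.38 ± 0.98) completed the 12 highest together with Plaur. Slc37a2 was not called in the 12 libraries alone.

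At the low end, Tnfaip6, which encodes a hyaluronan-binding protein, had 0.508, 1.84 and 2.77 CPM and 17, 21.3 and 27.4 CPM in 14559TN, and 13.2, 15.7 and 15.2 CPM and 12.5, 9.52 and 6.31 CPM in 14559R. Its response was 3.66 ± 0.51 in 14559TN and -0.63 ± 0.41 in 14559R, a difference of -4.29 ± 0.66 (edgeR adjusted p = 3.69e-05). Epha3, an ephrin receptor gene, read 6.09, 6.45 and 5.29 CPM and 86.6, 81.3 and 96.5 CPM in 14559TN, and 7.98, 17.8 and 13.2 CPM and 28.1, 4.88 and 9.60 CPM in 14559R (-3.75 ± 0.78, edgeR adjusted p = 0.00254). For both genes treated 14559TN was the highest group. Gbp4 (-3.77 ± 0.98), a guanylate-binding protein gene, and the matrix gene Mfap4 (-3.38 ± 0.95) also stood among the 12 lowest, the latter lost in 5 of 20 alternatives, treated 14559R replicate 3 left out among them. With them was Csmd3 (-3.36 ± 1.04), lost in 7 that included the same one. A further 5 go by a locus code here: Gm10419 (-4.84 ± 0.75), Gm43283 (-4.17 ± 0.77), Gm12250 (-4.09 ± 0.93), 3830408C21Rik (-3.51 ± 0.87) and Gm45200 (-3.33 ± 0.81). The last was not called without untreated 14559R replicate 2.

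Some called genes were almost silent in a group and are given by level. Atp2a3, a calcium pump gene, had 58.4, 49.2 and 67.1 CPM and 3.41, 0.836 and 0.857 CPM in 14559TN, and 0 counts in untreated 14559R against 0.454, 2.69 and 0 CPM in treated 14559R. Chrna1, a muscle acetylcholine receptor subunit, had 12.2, 16 and 25.2 CPM and 0.852, 0 and 0 CPM in 14559TN, and 365, 141 and 197 CPM and 94.3, 116 and 429 CPM in 14559R. Both genes, with the non-coding C030034L19Rik, fell in 14559TN. Col14a1, a collagen gene, rose from 1.01, 1.23 and 0 CPM to 42.9, 49.1 and 34.3 CPM in 14559TN and read 0.249, 14.1 and 0.977 CPM and 0.227, 0.488 and 1.51 CPM in 14559R. C3, complement component 3, read 1.78, 1.54 and 2.77 CPM and 24.4, 29 and 22 CPM in 14559TN, and 0.748, 0 and 1.96 CPM and 0.227, 0 and 0.253 CPM in 14559R. Tox, a regulator of T cell development, had 5.33, 2.77 and 3.02 CPM and 47.7, 56 and 72.8 CPM in 14559TN and at most 0.69 CPM in any 14559R tumour, and Plce1 rose in 14559TN and was near 0 in treated 14559R. The call of Tox was lost in 8 of 20 alternatives, each with 1 library left out. Other calls were lost without 1 library, Atp2a3 without treated 14559R replicate 2, C3 without untreated 14559R replicate 3 and Plce1 without untreated 14559R replicate 2. Chrna1 was not called with limma-voom or in the 12 libraries alone.

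Only 5 genes changed in both clones in opposite directions. Ptgs1 (chr2:36230426-36252272), which encodes cyclooxygenase 1, had 197, 158 and 212 CPM and 64.2, 73.3 and 58.5 CPM in 14559TN, and 76, 35.8 and 34.7 CPM and 98.2, 297 and 139 CPM in 14559R. It fell in each treated tumour of 14559TN and lay higher in each treated tumour of 14559R, with a difference of 3.40 ± 0.50 (edgeR adjusted p = 7.32e-05). Sorbs3, an adaptor gene of cell adhesion, read 30.5, 25.5 and 21.2 CPM and 15.6, 16.3 and 11.7 CPM in 14559TN, and 2.24, 6.70 and 3.18 CPM and 17.2, 14.4 and 14.9 CPM in 14559R (2.74 ± 0.44, edgeR adjusted p = 5.73e-05). Dtna encodes dystrobrevin alpha of the dystrophin complex. It rose from 10.7, 13.8 and 15.4 CPM to 25.6, 26.3 and 33.7 CPM in 14559TN and fell from 30.7, 44.4 and 41.5 CPM to 17, 20.3 and 16.9 CPM in 14559R (-2.20 ± 0.32, edgeR adjusted p = 1.33e-05). No treated tumour overlapped the untreated tumours of its clone for these 3 genes. The loci Gm47586 (1.80 ± 0.31) and 6720427I07Rik (-2.18 ± 0.38) go by a locus code here. The call of the 14559R response was lost for all 5 when some single libraries were left out, and for 6720427I07Rik without treated replicate 3.

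A further set changed in 14559R and was not called for the difference. Scara5 (chr14:65666403-65764826), a scavenger receptor gene, rose from 129, 123 and 165 CPM to 442, 439 and 438 CPM in 14559TN and from 85.3, 59.2 and 86 CPM to 254, 180.2 and 227 CPM in 14559R. Treated and untreated tumours were apart in both clones. The responses were 1.66 ± 0.19 (edgeR adjusted p = 1.07e-07) and 1.52 ± 0.20 (edgeR adjusted p = 0.000132), and the difference had a 95% interval of -0.69 to 0.42. Gas1, a growth arrest gene, read 677, 682 and 694 CPM and 895, 1088 and 1264 CPM in 14559TN, and 95.5, 126 and 76.5 CPM and 346, 208 and 259 CPM in 14559R. Its difference of 0.79 had an interval of 0.20 to 1.37 (edgeR adjusted p = 0.0733) and was called in 3 of 20 alternatives. Setbp1 (1.09 in 14559R), Clu (1.57), Pitpnc1 (1.05) and Sntb2 (0.76) were of the same kind, with intervals of -0.80 to 0.23, -0.19 to 1.26, -0.43 to 0.62 and -0.05 to 0.78 for the difference. Ogn, a small matrix proteoglycan gene, had 16.8, 10.1 and 13.1 CPM and 102, 132 and 151 CPM in 14559TN, and 0, 0.462 and 0 CPM and 1.81, 1.47 and 2.53 CPM in 14559R. The treated values were higher in both clones, at very different levels, and the difference of 0.10 (95% interval -1.11 to 1.31) was not called (edgeR adjusted p = 0.951).

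The other pair of clones in the series, 2646R and 2646TN, shares no library with 14559R and 14559TN, and the difference between the pairs was tested as a contrast of its own. It was called for 1307 genes (9.84%), 800 above 0 (6.02%) and 507 below 0 (3.82%), which marks where the difference between 14559R and 14559TN was unlike that between 2646R and 2646TN. Of the mitosis list 23 of 34 members were called above 0, of DNA replication 10 of 32, of cholesterol synthesis 10 of 24, of glycolysis 12 of 24 and of MAPK output 7 of 19. In the interferon lists 2 type I, 1 interferon gamma and 2 sensing genes were called below 0, and no MHC class I gene was called. Macrophage markers moved with this contrast, with 7 of 14 called below 0 and a median of -3.93, and with their mean as a covariate 452 genes were called. Their part in the result was not tested beyond that fit.

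The genes of smallest p that were called in both contrasts, which share the 12 libraries, are given with each contrast's own value. Avpi1, a gene induced by vasopressin, fell in 14559TN from 148, 149.7 and 152 CPM to 15.9, 24.4 and 18.9 CPM and read 47.9, 34 and 40.6 CPM and 54.6, 80.8 and 57.3 CPM in 14559R. In the other pair it had 61.2 ± 10.5 and 54.7 ± 12.5 CPM in 2646TN, and 85.4 ± 10.3 and 45.6 ± 4.26 CPM in 2646R (mean ± SD, n = 3). The response difference was 3.57 ± 0.28 and the contrast of the pairs 4.31 ± 0.39 (edgeR adjusted p = 2.07e-08). Hmga2, an architectural chromatin gene, fell from 2393, 2562 and 2327 CPM to 659, 550.2 and 598 CPM in 14559TN and read 3282, 2393 and 3083 CPM and 2048, 2372 and 2715 CPM in 14559R. In 2646TN it had 1305 ± 218 and 1411 ± 298 CPM and in 2646R 2471 ± 213 and 1302 ± 122 CPM, which gave 1.72 ± 0.23 for the response difference and 2.75 ± 0.32 between the pairs. Smarca2, an ATPase of the SWI/SNF complex, rose from 147, 169 and 156 CPM to 538, 462 and 510.1 CPM in 14559TN and read 74.8, 125 and 83.1 CPM and 151, 90.3 and 105 CPM in 14559R. It had 242 ± 15.8 and 301 ± 13.5 CPM in 2646TN, and 66.7 ± 9.12 and 196 ± 28.7 CPM in 2646R, with -1.39 ± 0.23 and -2.62 ± 0.33 for the contrasts. For Hmga2 and Smarca2 the treated and untreated means were further apart in 2646R than in 2646TN, the reverse of the order in 14559R and 14559TN. Fxyd5 (3.41 ± 0.29 and 3.79 ± 0.41), Emp2 (1.39 ± 0.23 and 2.89 ± 0.32) and Hivep3 (3.27 ± 0.43 and 5.34 ± 0.61) completed the 5 highest. Below 0 stood Dhrs3 (-1.25 ± 0.29 and -2.99 ± 0.41), Maged2 (-0.95 ± 0.22 and -2.17 ± 0.32), Usp11 (-1.51 ± 0.26 and -2.36 ± 0.36) and Camk2n1 (-0.76 ± 0.20 and -2.01 ± 0.28).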

How the data were processed

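The authors aligned reads with STAR 2.6.0c and counted them with featureCounts 1.6.2 on GRCm38, per the submitters' processing notes, and the deposited counts are raw whole numbers per gene, counted on the sense strand per the file headers. Libraries were made with a QuantSeq 3′ kit, per the labels' protocols, so a count is a read near the 3′ end and levels of different genes are not per length. From the counts of all 30 libraries, genes were filtered with filterByExpr, which left 13286 of 54532, scaled with TMM factors and fitted by group with edgeR 4.0.16 (R 4.3.3, limma 3.58.1), with 20 residual degrees of freedom. Contrasts were tested by quasi-likelihood with Benjamini-Hochberg adjustment over all tested genes at 0.05. The procedure was tested on simulated data. CPM are counts scaled to the TMM-adjusted library size, and log2 values are given ± SE. The 12 libraries held 3287743 to 4620473 counts.

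Genes were named by rule: the 12 highest and 12 lowest differences among called genes with at least 10 CPM in the highest group and 1 CPM in each group, 4 each way with a group under 1 CPM, the 3 called members of smallest p in each pathway list, 25 genes always given, genes with opposite responses, 6 genes called in 14559R and not for the difference, and 5 each way for the contrast of the pairs. Not every gene the rule covers is printed, and further list members were added after their values were seen. The members and lists were chosen with earlier results of these data known. Alternatives were other scaling factors and filters, DESeq2 1.42.0, limma-voom, the 12 libraries alone, a macrophage covariate and each library left out. Some genes of the lists and of the naming rule are not reported here by name.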

Additional observations from a re-analysis of the deposited data

Results flagged for a closer look

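The response to RAFi/MEKi differed between 14559R and 14559TN by the test of the interaction itself for 1596 genes (edgeR's quasi-likelihood test, Benjamini-Hochberg adjusted p under 0.05). The difference of this pair from the pair 2646R and 2646TN was called in the same way for 1307 genes.

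For 5 genes the responses of the clones had opposite signs, each called on its own, with log2 response differences of 3.40 for Ptgs1, 2.74 for Sorbs3, -2.18 for 6720427I07Rik, 1.80 for Gm47586 and -2.20 for Dtna. The contrast of the pairs stood at 4.31 for Avpi1, 2.89 for Emp2, 3.79 for Fxyd5, 5.34 for Hivep3 and 2.75 for Hmga2 on the log2 scale. Below 0 it stood at -2.62 for Smarca2, -2.99 for Dhrs3, -2.01 for Camk2n1, -2.17 for Maged2 and -2.36 for Usp11.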

How the results depend on the processing

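The number of genes called for the response difference was 1596 and ranged from 1108 to 1743 when 1 library was left out. The count for 14559TN ranged from 2762 to 3803. The count for 14559R, 26 as reported, was 319 without a filter on low counts, 113 with DESeq2, 47 with limma-voom and 61 in the 12 libraries alone, and it ranged from 4 (without untreated replicate 1) to 84 (without treated replicate 3) when 1 library was left out. The cause was not tested. The contrast of the pairs, 1307 genes as reported, gave 452 with the macrophage markers as a covariate and 969 to 1476 when 1 library was left out. Of 125 named genes called for the response difference, 101 stayed called in all 20 alternatives and 24 were lost in at least 1, and of 16 not called 4 were called in at least 1. None of the 125 changed direction. No paired analysis was possible because each tumour carries its own code in the labels. The replicate numbers used here follow the order of the samples within a group and link no tumours across groups.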
